A study of Mus musculus with 6 samples.

Results

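The 9 genes described here are the mouse fibroblast growth factor (FGF) receptors *Fgfr1*, *Fgfr2*, *Fgfr3*, *Fgfr4* and *Fgfrl1* and the FGF ligands *Fgf1*, *Fgf2*, *Fgf7* and *Fgf18*. They were chosen by gene symbol and are 9 of the 17854 genes in the expression table. Bulk RNA-seq was carried out on Tomato+ cells of the knee articular cartilage, 3 libraries from either of 2 groups. The MSC-derived cells came from male C57BL/6 mice whose knee osteoarthritis had been induced by anterior cruciate ligament transection (ACLT) and whose joints had then been injected with *Prrx1*-lineage mesenchymal stromal cells (MSCs) from inguinal white adipose tissue (iWAT) of *Prrx1-Cre; R26tdTomato* donors. The endogenous cells came from male *Prrx1-Cre; R26tdTomato* mice matched for age, for which neither surgery nor injection was stated. The labels give chondrocyte as the cell type and C57BL/6 as the strain of both groups, and give no age. Cre under *Prrx1* control marks all descendants of *Prrx1*-expressing limb cells, which include osteoblasts as well as chondrocytes, so the Tomato label alone does not single out chondrocytes. Adipose origin, injury and injection differed together between the groups and cannot be told apart. The study used 3 mice for each group but does not say that each library was 1 mouse, so p-values measure the spread between these libraries.

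FGF ligands bind receptor tyrosine kinases on the cell surface together with heparan sulfate, and the receptors pass the signal through the adaptor Frs2 to the Ras and MAP kinase cascade. In cartilage, Fgfr3 restrains the proliferation of growth plate chondrocytes, Fgf18 is a ligand that promotes cartilage formation, and Fgfr1 and Fgf2 have been linked to matrix breakdown in joints. Fgfrl1 binds FGF ligands but has no kinase domain, and Fgf7 is a mesenchymal factor that acts on epithelial cells through a splice form of Fgfr2.

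The libraries held between 22060628 and 24881796 expected counts. Endogenous replicate 1 stood apart: 3459 genes had no count in it, against 1338 and 1395 in the other endogenous libraries. Over the 14289 genes that passed a filter on low counts, its Spearman correlation with them was 0.955 to 0.957, where those had 0.995 with each other. The MSC-derived libraries, with 0.995 among themselves, correlated with the endogenous ones at 0.698 to 0.739. The markers did not single out chondrocytes in either group. The summed TPM (a level per transcript length, scaled to a fixed total in each library) of 15 chondrocyte markers was 28915 to 29484 in the endogenous libraries and 495 to 510.4 in the MSC-derived ones, and all 15 were lower in the latter, with none at 0. All 8 osteoblast markers were lower too (summed TPM 569 to 588 against 53319 to 68803), and in the endogenous libraries their sum was above that of the chondrocyte markers. The largest parts of that sum, named after the values were seen, were *Bglap* (mean TPM 35346) and *Col1a1* (20379). All 18 common mesenchymal markers (3243 to 3321 against 37886 to 44063) were lower as well. Blood cell markers were higher in the MSC-derived libraries, in all 18 of the macrophage list (32236 to 33397 against 915 to 1132), all 10 of the neutrophil list (147109 to 155802 against 8180.0 to 11527) and all 10 of the erythroid list (79186 to 81493 against 18208 to 24593). The part of these cells in the differences given here was not tested. Levels and shares given for a group are thus those of its libraries, which hold markers of several cell types. In bulk RNA, fewer cells of a type and less RNA per cell cannot be told apart. Of the remaining lists, 6 of 8 endothelial markers were higher, and 3 of the 5 adipocyte markers tested were higher and 2 lower. Of the 4 skeletal muscle markers tested, 0 were called by edgeR, with unadjusted p of 0.195 to 0.729 (summed TPM 7.39 to 9.11 against 7.24 to 15.6). Among the lower markers, 1 of the chondrocyte list (*Matn1*), 1 of the osteoblast list (*Phex*) and 1 of the adipocyte list (*Cidec*) passed the filter only through the endogenous libraries.

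The kinase receptors *Fgfr1*, *Fgfr2* and *Fgfr3* were lower in the MSC-derived libraries than in the endogenous ones. So were the kinase-less receptor *Fgfrl1* and the ligands *Fgf2*, *Fgf7* and *Fgf18*. *Fgf1* alone of the 9 was higher, by a smaller margin. *Fgfr4* was also called lower, but it passed the filter on low counts only through the endogenous libraries, so its call carries no weight. With *Fgfr4* counted, edgeR's quasi-likelihood test called 8 genes lower and 1 higher at a Benjamini-Hochberg adjusted p of at most 0.05. Among the 14289 genes tested, 30.3% were called lower, 31.3% higher and 61.6% in either direction, so a call by itself was common. The median log2 fold change of the 9 was -4.15 (-3.93 with *Fgfr4*, which had no count in the MSC-derived libraries, set at its bound), against 0.05 over all genes tested. On library-size-scaled counts (CPM) normalized by the trimmed mean of M-values (TMM CPM), the groups overlapped for none of the 9, which was the case for 72.4% of all genes tested. The 8 lower genes, with *Fgfr4* at 0 counts in the MSC-derived libraries, had every MSC-derived library below every endogenous one, as had 34.1% of all genes.

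**Figure D1:**
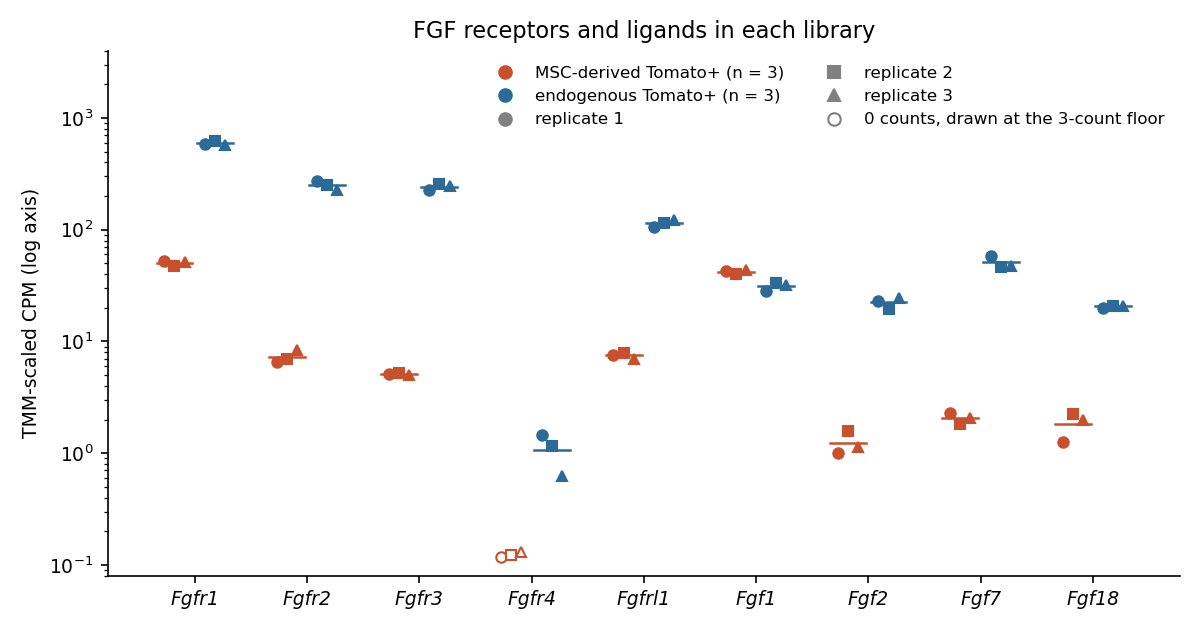
TMM CPM of the 9 genes in each library on a log axis, with MSC-derived libraries in orange, endogenous libraries in blue, marker shapes for the replicates and a short line for the group mean. The endogenous points lie above the MSC-derived points for every gene but *Fgf1*, and *Fgfr4*, with 0 counts in the MSC-derived libraries, is drawn there at the level of 3 counts.

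*Fgfr1*, the receptor of mesenchymal cells at large, was the receptor with the highest level in both groups. It stood at 52.3, 47.2 and 51.1 TMM CPM in the 3 MSC-derived libraries and at 582, 627 and 576 in the endogenous ones. These values rest on 1150 to 1339 and 13205 to 14175 expected counts. The MSC-derived libraries lay close together, at 8.44% of the endogenous mean. The log2 fold change was -3.57 (standard error 0.08, adjusted p = 7.48e-08 by edgeR's quasi-likelihood test).

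*Fgfr2*, which is made by osteoprogenitors and, in another splice form, by epithelia, measured 6.53, 6.89 and 8.35 TMM CPM in the MSC-derived libraries. In the endogenous libraries it measured 272, 250.4 and 228. No MSC-derived library came near the endogenous range, and the mean was 2.90% of the endogenous mean. Its log2 fold change was -5.11 (SE 0.13, adjusted p = 1.25e-07, edgeR).

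*Fgfr3*, the receptor that defines the cartilage response to FGF, had 5.12, 5.21 and 4.98 TMM CPM in the MSC-derived libraries and 227, 255 and 247 in the endogenous ones. The 3 MSC-derived values lay close together, and their mean was 2.10% of the endogenous mean. With a log2 fold change of -5.57 (SE 0.10, adjusted p = 3.39e-08, edgeR), *Fgfr3* had the most negative value of the 8 genes that were detected in both groups, and 1.32% of all genes tested had a lower one. It was detected in every MSC-derived library, from 114 to 131 counts.

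*Fgfr4*, a receptor best known from liver and developing muscle, was near the limit of detection. No count was found in any MSC-derived library, which allows up to 0.117 to 0.131 TMM CPM at a floor of 3 counts per library (counting error only). The endogenous libraries had 33, 26 and 15 counts, or 1.45, 1.15 and 0.628 TMM CPM. Against the highest of those floors *Fgfr4* was at least 8.21-fold lower in the MSC-derived libraries. The gene passed the filter on low counts only through the endogenous libraries, so its call carries no weight of its own.

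*Fgfrl1*, the receptor without a kinase, measured 7.58, 7.88 and 7.00 TMM CPM in the MSC-derived libraries and 106, 115 and 122 in the endogenous ones. The MSC-derived mean was 6.56% of the endogenous mean, with no overlap. The log2 fold change was -3.93 (SE 0.11, adjusted p = 1.40e-07, edgeR).

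The balance among the receptors was compared per transcript length, as the share of each in the summed TPM of *Fgfr1* to *Fgfr4*. That sum was 17.5 ± 0.748 TPM (SD, n = 3) in the MSC-derived and 420.3 ± 33.5 TPM in the endogenous libraries. *Fgfr1* made up 81.0%, 79.0% and 78.6% of it in the MSC-derived libraries and 52.2%, 53.7% and 53.1% in the endogenous ones. *Fgfr3* accounted for 9.33%, 10.1% and 9.05% against 24.3%, 25.6% and 26.7%, and *Fgfr2* for 9.66%, 11.0% and 12.3% against 23.3%, 20.6% and 20.2%. *Fgfr1* thus took a larger share of the receptor transcripts in the MSC-derived libraries and *Fgfr2* and *Fgfr3* smaller ones, with no overlap between the groups. An exact two-sided permutation test gave p = 0.10 for each of *Fgfr1*, *Fgfr2* and *Fgfr3* (0.12 after Benjamini-Hochberg adjustment over 5 tests). This is the smallest p that 3 against 3 libraries allow. *Fgfr4* had the same p, but its share was 0 in the MSC-derived libraries (0.150% ± 0.0583 in the endogenous ones), so its test carries no weight. *Fgfrl1* equalled 23.3% ± 2.11 of the summed receptor TPM in the MSC-derived and 19.7% ± 1.73 in the endogenous libraries. These values overlapped (exact permutation p = 0.20), so its level relative to the kinase receptors was not shown to differ.

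**Figure D2:**
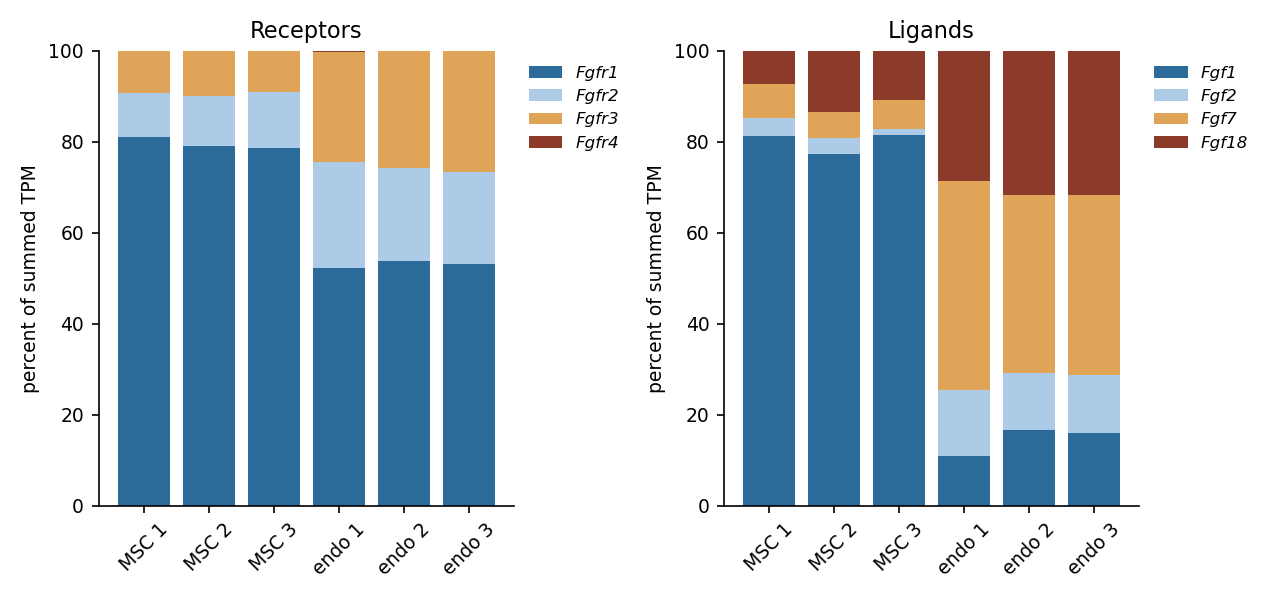
Stacked bars of the percent of summed TPM taken by each kinase receptor (left) and by each of the 4 ligands (right) in the 3 MSC-derived (MSC) and 3 endogenous (endo) libraries. *Fgfr1* takes 78.6% to 81.0% of the receptor sum in the MSC-derived libraries and 52.2% to 53.7% in the endogenous ones, and *Fgf1* takes 77.4% to 81.4% of the ligand sum against 10.8% to 16.7%.

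Among the ligands, *Fgf7* was the furthest below its endogenous level. This growth factor, made by stromal cells, measured 2.31, 1.81 and 2.06 TMM CPM in the MSC-derived libraries and 58.5, 46.7 and 47.8 in the endogenous ones, from 44 to 59 and 1056 to 1328 counts. Endogenous replicate 1 had the highest value, and the groups were far apart. The log2 fold change was -4.63 (SE 0.17, adjusted p = 4.92e-07, edgeR).

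*Fgf18*, the cartilage-promoting ligand, had 1.25, 2.26 and 1.97 TMM CPM in the MSC-derived libraries against 20.1, 20.7 and 20.9. The MSC-derived values, from 32 to 55 counts, had the wider relative spread, and the groups did not overlap. Its log2 fold change was -3.49 (SE 0.25, adjusted p = 1.31e-05, edgeR).

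*Fgf2*, a ligand stored in the cartilage matrix, measured 1.00, 1.59 and 1.13 TMM CPM against 22.9, 19.5 and 24.6, with a log2 fold change of -4.15 (SE 0.24, adjusted p = 4.25e-06, edgeR). Its counts are uncertain, for a cause that was not tested, and were only 26 to 39 in the MSC-derived libraries. The exons of *Fgf2* overlap those of *Nudt6* on the opposite strand in the GENCODE annotation of GRCm38, the expected counts of *Fgf2* were not whole in 6 of 6 libraries, and the transcript length implied by counts and FPKM ran from 2050 to 5841 bases among the MSC-derived libraries. *Nudt6* itself, a nudix hydrolase gene, had 90 to 133 counts in the MSC-derived and 28 to 132 in the endogenous libraries and was not called (log2 fold change 0.28, SE 0.52, adjusted p = 0.660, edgeR). Counting by strand was not stated, so reads of the overlap cannot be assigned. *Fgfr1* and *Fgfr3* also overlap a gene on the other strand in their exons, *Gm16159* and *G630022F23Rik*.

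*Fgf1*, the ligand that activates all of the FGF receptors, measured 42.6, 40.2 and 43.4 TMM CPM in the MSC-derived libraries and 28.0, 33.4 and 31.9 in the endogenous ones. Every MSC-derived library was above every endogenous one, by a margin far smaller than those of the other 8 genes. The log2 fold change was 0.43 (SE 0.11, adjusted p = 0.0101, edgeR), and 63.6% of all genes tested had a lower one. The direction held on FPKM, with 10.6, 10.0 and 11.2 against 5.36, 7.62 and 7.41. FPKM summed over all genes to 808701 to 813572 in the MSC-derived libraries, however, and to 504768 to 573603 in the endogenous ones. The transcript length of *Fgf1* implied by counts and FPKM was 5062 bases in endogenous replicate 1 and 4033 to 4198 in the other libraries. On TPM the groups overlapped, at 13.1, 12.4 and 13.7 against 10.6, 13.3 and 12.9, and limma on log2(TPM + 1) gave a difference of 0.09 (adjusted p = 0.567), in a test that called 21.9% of all genes higher and none of the 9. The scales themselves shift all genes: the median over all genes tested was 0.05 with TMM and -0.28 on log2(TPM + 1). Relative to these medians the difference of *Fgf1* was 0.39 and 0.37.

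**Figure D3:**
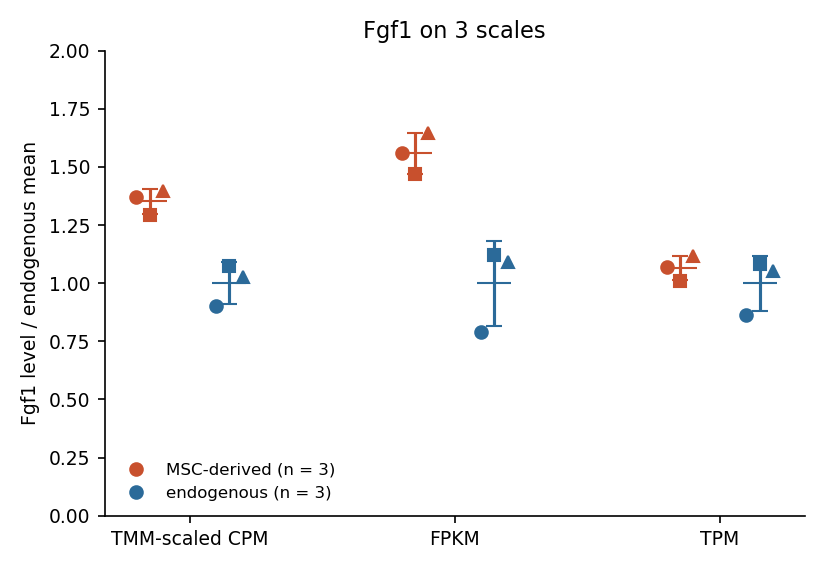
*Fgf1* in each library divided by the mean of the endogenous libraries on 3 scales, TMM CPM, FPKM and TPM, with the group mean and SD (n = 3) beside the points and the endogenous mean at 1. The groups are apart on TMM CPM and FPKM and overlap on TPM.

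*Fgf1* made up most of the summed TPM of these 4 ligands in each MSC-derived library, but a minor part in each endogenous library. The sum over *Fgf1*, *Fgf2*, *Fgf7* and *Fgf18* was 16.3 ± 0.461 TPM (SD, n = 3) per MSC-derived library against 86.2 ± 10.1 per endogenous library. The share of *Fgf1* was 80.0% ± 2.27 against 14.5% ± 3.18. *Fgf7* had 6.51% ± 0.812 against 41.6% ± 3.75, *Fgf18* had 10.6% ± 3.03 against 30.7% ± 1.75, and *Fgf2* had 2.90% ± 1.26 against 13.3% ± 1.17.

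In the order of TPM levels, the MSC-derived libraries had *Fgfr1* (13.9) and *Fgf1* (13.1) at the top with overlapping ranges, then *Fgfrl1* (4.07). *Fgfr2* (1.92), *Fgf18* (1.72) and *Fgfr3* (1.65) followed, with ranges that ran into each other. Below them came *Fgf7* (1.06), *Fgf2* (0.470) and *Fgfr4* (0). The endogenous libraries had *Fgfr1* first (223), followed by *Fgfr3* (107), *Fgfr2* (90.1) and *Fgfrl1* (82.5), of which each overlapped the next. *Fgf7* (36.1) and *Fgf18* (26.4) came after them, then *Fgf1* (12.3) and *Fgf2* (11.5), which overlapped, and *Fgfr4* (0.643). *Fgf1* was thus second of 9 in one group and seventh in the other, while its own TPM was nearly level.

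**Figure D4:**
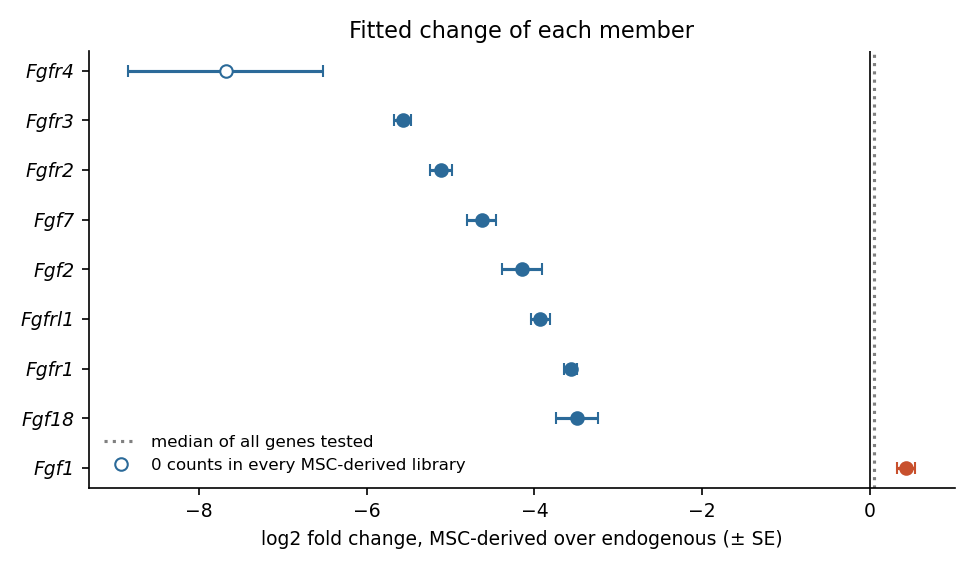
Fitted log2 fold change of each gene, MSC-derived over endogenous, with its standard error (3 against 3 libraries) and the median of all genes tested as a dotted line. Values run from 0.43 for *Fgf1* to -5.57 for *Fgfr3*, and the open point of *Fgfr4* is a fit against 0 counts and no measure of size.

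Leaving out endogenous replicate 1 kept the direction and the call of all 9 genes, though the call of *Fgfr4* carries no weight of its own. The log2 fold changes were then -3.65 for *Fgfr1*, -5.11 for *Fgfr2*, -5.68 for *Fgfr3* and -4.05 for *Fgfrl1*. The ligands stood at -4.20 for *Fgf2*, -4.58 for *Fgf7* and -3.58 for *Fgf18*, and *Fgf1* at 0.30 (adjusted p = 0.00341, edgeR). The share of all genes called in this fit is not given here.

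Since the mesenchymal markers as a list were also lower in the MSC-derived libraries, each gene was set against the mean log2(TPM + 1) of the 18 common mesenchymal genes of the same library. The pseudocount of 1 compresses low values. On this scale *Fgfr3* was 2.46 and *Fgfr2* 2.07 log2 units below its endogenous level (differences of -2.46 and -2.07), with -1.27 for *Fgf7*, -1.16 for *Fgfrl1*, -1.02 for *Fgfr1* and -0.46 for *Fgf18*. In these 6 genes every MSC-derived library lay below every endogenous one. That number depended on the scale: it was 7 with a pseudocount of 0.1 and 5 with the summed TPM of the list as reference. The share of all genes tested with such a separation on this scale is not given here. *Fgf2* overlapped between the groups at the pseudocount of 1 (-0.20), and *Fgf1* lay above the endogenous level in every library (2.97). The reference list was itself lower in the MSC-derived libraries, which raises every gene on this scale. On log2(TPM + 1) without the reference, the difference of *Fgf1* was 0.09. *Fgfr4* was left out of this scale because its level was 0. These values are a description over 3 libraries per group with no test.

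Upstream sequence was looked at for the members that moved together. The table of RefSeq start sites used here (GRCm38.p6) held 7 of the 9 genes, with 8 starts, and *Fgfr1* and *Fgf1* were not analysed. Below are the windows before the start of the receptors and the ligand with the most negative fold changes among genes detected in both groups, 5′ to 3′ on the gene's strand. They are *Fgfr3* (chr5:33721474-33721673, plus strand, 200 bases that lie outside annotated exons), *Fgfr2* (chr7:130266809-130267058, minus strand, 250 bases) and *Fgf7* (chr2:126034408-126034657, plus strand, 250 bases). Capitals mark a match to the GC box GGGCGG or to the SOX-type motif ACAAAG or ACAATG on either strand.
Fgfr3: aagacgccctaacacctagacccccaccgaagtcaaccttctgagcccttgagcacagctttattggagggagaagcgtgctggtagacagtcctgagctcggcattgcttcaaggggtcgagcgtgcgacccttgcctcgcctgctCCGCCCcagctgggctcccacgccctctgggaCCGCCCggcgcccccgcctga
Fgfr2: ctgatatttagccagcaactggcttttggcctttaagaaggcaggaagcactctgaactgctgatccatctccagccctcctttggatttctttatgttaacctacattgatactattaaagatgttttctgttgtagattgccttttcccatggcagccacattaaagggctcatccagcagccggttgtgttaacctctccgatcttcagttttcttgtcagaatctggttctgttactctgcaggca
Fgf7: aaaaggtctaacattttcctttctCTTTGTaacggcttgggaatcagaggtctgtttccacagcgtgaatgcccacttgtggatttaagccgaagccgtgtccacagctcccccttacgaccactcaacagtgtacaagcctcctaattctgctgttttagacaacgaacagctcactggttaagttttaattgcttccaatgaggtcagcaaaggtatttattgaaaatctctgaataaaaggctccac

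The printed *Fgfr3* window holds 2 GC boxes, that of *Fgfr2* holds none of the motifs searched, and that of *Fgf7* holds 1 SOX-type match. Over the 250 bases before each start, 5 of the 7 genes had a GC box, against 32.7% of 32851 mouse promoters. The SOX-type motif occurred in 1 of 7 (25.2% of all promoters), the TATA box TATAAA in 0 (12.4%), and neither the cAMP response element TGACGTCA (1.55%) nor the AP-1 motif TGACTCA (4.46%) was found in any. GC content ranged from 43.6% (*Fgf7*) and 44.0% (*Fgfr2*) to 77.2% (*Fgf18*), with a median of 52.4% over all promoters. The windows with a GC box had 62.4% to 77.2% GC. The shares of all promoters were counted per promoter and not matched for GC content, so they are no like background for the GC box. The genes that were lower together thus had upstream windows of unlike base composition, and these matches are letters in a window and not sites of binding.

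Of the 17 other FGF family genes in the table, 6 passed the filter on low counts. This list holds intracellular factors as well as receptor ligands. Of the 6, 1 was called lower (16.7%, below the 30.3% of all genes tested) and 5 were not called. The median log2 fold change was -1.10 against 0.05 for all genes. The called gene, *Fgf13*, encodes an intracellular FGF homologous factor and measured 1.49, 0.738 and 0.874 TMM CPM against 7.27, 4.73 and 4.48 (log2 fold change -2.40, SE 0.42, adjusted p = 0.00188, edgeR). *Fgf14*, another intracellular factor, named after its values were seen because its counts were the highest of this list, had 233, 228 and 215 counts against 473, 205 and 213 and was not called (-0.48, SE 0.35, adjusted p = 0.265). *Fgf21*, a metabolic hormone, had no count in the MSC-derived libraries and 20, 5 and 16 in the endogenous ones, at least 4.50-fold lower against the floor, and did not pass the filter. Without endogenous replicate 1 the number called lower was 3, and the share of all genes called in that fit is not given here.

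Co-receptors and carriers of FGFs were mostly lower. Of 18 tested, 12 (66.7%) were lower, 2 (11.1%) higher and 4 not called, with a median log2 fold change of -2.44. Over all genes tested, 30.3% were lower and 31.3% higher, with a median of 0.05. Of the 12, *Flrt3*, *Kl* and *Gpc3* passed the filter on low counts only through the endogenous libraries. *Flrt3*, a membrane protein that binds FGF receptors, had 0.274, 0.164 and 0.131 TMM CPM against 18.1, 13.9 and 13.6, with only 3 to 7 MSC-derived counts behind its level. The heparan sulfate carrier *Gpc6* had a log2 fold change of -5.44 (SE 0.17, adjusted p = 2.44e-07, edgeR). *Kl*, the co-receptor of the hormone Fgf23, had no count in the MSC-derived libraries and 34, 17 and 17 in the endogenous ones, at least 7.52-fold lower. Its relative *Klb* was not called (-1.22, adjusted p = 0.183). The heparan sulfate proteoglycan *Sdc3* was higher, at 1155, 1167 and 1187 against 389.9, 446 and 404 TMM CPM (1.50, SE 0.07, adjusted p = 1.48e-06), and so was *Sulf2*, which trims sulfate from heparan sulfate (0.91, SE 0.07, adjusted p = 2.84e-05).

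Of the 26 genes of the signal relay inside the cell, 8 were higher, 7 lower and 11 not called, with a median of -0.19. The shares, 30.8% higher and 26.9% lower, were close to those over all genes tested (31.3% and 30.3%). The highest fold change was that of the kinase *Rps6ka1* (3.60, SE 0.26, adjusted p = 1.50e-05, edgeR), which is also expressed in blood cells. The adaptor *Gab1* was lower (-1.84, SE 0.14, adjusted p = 1.67e-05), as was *Plcg1*, the phospholipase that docks on FGF receptors (-1.52, SE 0.19, adjusted p = 2.75e-04). *Frs2*, the docking adaptor of the FGF receptors, had 11.2, 13.6 and 10.0 TMM CPM against 23.4, 17.8 and 14.8 and was called lower (-0.68, SE 0.21, adjusted p = 0.0262), a call that was lost in 5 of 19 alternative settings. The split of the list depended on the scale: on log2(TPM + 1) with limma, 4 were higher and 14 lower. The median over all genes tested was -0.28 in that fit and 0.05 with TMM. It called 21.9% of all genes higher, and its share called lower is not given here.

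Feedback and target genes, which FGF signals induce in many cells, were mostly lower. Of 17 tested, 11 (64.7%) were lower, 2 (11.8%) higher and 4 not called, with a median log2 fold change of -1.29. The shares over all genes tested were 30.3% lower and 31.3% higher, and the median was 0.05. Of the 11, *Etv4* and *Il17rd* passed the filter only through the endogenous libraries. The 3 Sprouty inhibitors measured were all lower. *Spry1* stood at 10.7 ± 1.15 against 85.1 ± 19.9 TMM CPM (SD, n = 3), *Spry2* at 8.93 ± 0.514 against 47.5 ± 7.62 and *Spry4* at 4.72 ± 0.544 against 27.6 ± 1.54. Their log2 fold changes were -2.99, -2.41 and -2.55, with adjusted p of 1.01e-05, 7.16e-06 and 5.72e-06 in that order (edgeR). *Etv4*, an ETS transcription factor of the FGF response, had 0.0391, 0.0820 and 0.481 TMM CPM against 7.31, 4.64 and 3.93, from 1, 2 and 11 counts in the MSC-derived libraries. Its relative *Etv5* was not called (-0.22, adjusted p = 0.147). *Dusp6*, the phosphatase that dampens ERK, went the other way, at 159, 153 and 168 against 58.0, 68.4 and 74.7 TMM CPM (1.26, SE 0.11, adjusted p = 3.87e-05), and was called higher in all 19 alternatives. *Spred2*, another inhibitor of the cascade, was called higher (0.82, SE 0.12, adjusted p = 7.68e-04) but lay lower on TPM, at 4.80 ± 0.612 against 9.14 ± 0.816, and its direction turned in 4 limma fits.

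**Figure D5:**
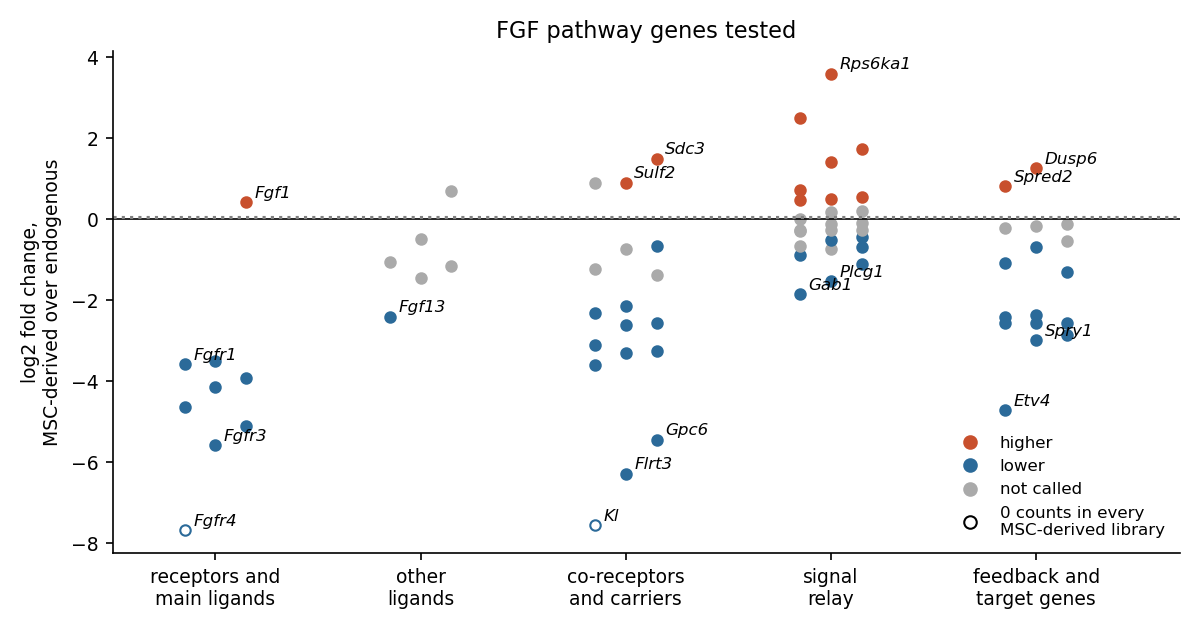
Log2 fold change, MSC-derived over endogenous, of each tested gene of the 9 genes and of 4 lists of the FGF pathway, colored by its call, with the median of all genes as a dotted line and open points for genes with 0 counts in every MSC-derived library. Co-receptors and feedback genes lie mostly below 0 with *Sdc3* and *Dusp6* above, and the signal relay lies on both sides.

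Genes with the pattern most like each member were found by the root mean square difference of centred log2 CPM over the 6 libraries, among 12671 genes. As every such pattern is set mainly by the difference between the groups, likeness means a fold change of like size and says nothing of shared function. For *Fgfr3* they were the Wnt inhibitor gene *Wif1* (0.07), the cartilage proteoglycan gene *Acan* (0.08) and the parathyroid hormone receptor gene *Pth1r* (0.08). *Fgfr1* was closest to *Creb3l1* (0.04), *Epas1* (0.06) and *P3h1* (0.06), and *Fgfr2* to *Slit2* (0.10), *Cxcl12* (0.11) and *Heyl* (0.12). *Fgfrl1* had *Myl9* (0.06), *Fkbp10* (0.06) and the cartilage matrix gene *Comp* (0.09) beside it. For the ligands these were *Camk4* (0.12), *P3h2* (0.13) and *Scrg1* (0.14) with *Fgf2*, *Tnfrsf11b* (0.09), *Peg3* (0.09) and *Sdk2* (0.11) with *Fgf7*, and *Gfra1* (0.13), *Twist1* (0.14) and *Lcat* (0.14) with *Fgf18*. *Fgf1* was nearest to *Kmt2d*, *Rnf7* and *Rnaset2a* (0.03 each). The low counts of *Fgfr4* left it with looser matches, *Adgra3* (0.22), *Lox* (0.23) and *Ptch1* (0.24).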

How the data were processed

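Total RNA libraries of 6 samples, 3 MSC-derived and 3 endogenous, were made by the study with an Illumina TruSeq kit. The authors filtered reads and quantified genes with RSEM on Bowtie2 alignments; the submitters' processing notes name Bowtie2 2.2.5, RSEM 1.2.12 and mm9. The expected counts, FPKM and TPM used here are the values the authors deposited in 1 table, with 24 columns of single samples, all mapped. The authors also deposited a signal of normalized read counts per gene, which was left aside together with 8 columns that average a group. For the count test, expected counts were taken to the nearest whole number, a step that altered 20.6% of the values.

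Groups came from the labels. The test was that of edgeR 4.0.16 under R 4.3.3 (filterByExpr, TMM, quasi-likelihood F-test, both groups, no covariate), leaving 14289 of 17854 genes, with Benjamini-Hochberg adjustment over all of them and a threshold of 0.05. Levels between genes were compared in TPM. TPM and FPKM were tested with limma 3.58.1 on a log2 scale with pseudocounts of 1 or 0.1, and DESeq2 1.42.0 was an alternative. The script was tested on simulated data, where it made few false calls but missed a part of the known changes, so a gene that was not called may still differ. The depth of 22060628 to 24881796 counts put the floor of 3 counts at 0.117 to 0.133 TMM CPM, for counting error only. Same-numbered libraries came from different mice and their deviations from the group means correlated at 0.00221 to 0.0178, so numbers were not taken as pairs.

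Named were the 9 genes, the 2 called genes that rose most and the 2 that fell most in each pathway list (average log2 CPM of at least 1), defining partners (*Kl*, *Klb*, *Frs2*, *Dusp6*, *Spry1*, *Spry2*, *Spry4*, *Etv4*, *Etv5*, *Fgf9*, *Fgf10*, *Fgf21*, *Fgf23*) and the 3 nearest patterns per gene. A gene that this rule names is not reported here. *Nudt6* and the other opposite-strand genes were added after the annotation was read. The members and lists were chosen with earlier results of these data known. Promoter windows are from RefSeq.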

Additional observations from a re-analysis of the deposited data

How the results depend on the processing

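Of 170 alternative member fold changes (18 of them of *Fgfr4*, whose call carries no weight), 167 kept their direction and side of the threshold. The other 3 were *Fgf1* with limma on log2(TPM + 1) (0.09, adjusted p = 0.567), on log2(TPM + 0.1) (0.10, adjusted p = 0.561) and on log2(TPM + 1) with no filter (0.09, adjusted p = 0.573), which left 0 members higher, as did an adjusted p of 0.001 or less. *Fgfr4* could not be tested with a filter of 1 CPM in 3 libraries. Of 248 alternative counts and shares, 222 stayed close to the values given. For the other FGF family genes, 2 were lower with DESeq2, with no filter and with limma on both TPM scales. The number was 3 with limma on TPM without a filter, 0 at 0.001, and 1 to 3 when leaving out 1 library. In the signal relay, limma on TPM gave 4 higher and 14 lower in all 3 fits, 3 were lower at 0.001, and 5 to 11 when leaving out 1 library (11 without endogenous replicate 1). The feedback list had 1 higher in all 4 limma fits on TPM and FPKM. Shares of all genes called are not given for these alternative fits, apart from 21.9% higher with limma on log2(TPM + 1). With expected counts in place of TPM, the difference in share was -14.1 percentage points for *Fgfr3* and -0.0985 for *Fgfr4*, and that of *Fgfrl1* to the summed receptors was 1.51. The cause was not tested. With the replicate number as a block, all 9 member calls of edgeR were kept (*Fgf1* 0.44, adjusted p = 0.0363, *Fgfr4* adjusted p = 0.0240). That of *Fgfr4* carries no weight of its own. Leaving out 1 library at a time gave 0.30 to 0.49 for *Fgf1* (adjusted p 0.00341 to 0.0473). Depth limits *Fgfr4*, *Kl* and *Fgf21* to lower bounds.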

Other observations

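Ligands that FGF studies of cartilage often name were near the limit of detection. *Fgf9*, a ligand of Fgfr3, had 2, 3 and 4 counts in the MSC-derived libraries and 0, 11 and 12 in the endogenous ones. *Fgf10*, the relative of Fgf7, had 12, 10 and 8 counts against 39, 15 and 9, and *Fgf23* had 1, 0 and 10 against 0, 18 and 12. Endogenous replicate 1 had the highest *Fgf10* count of the 6 libraries and no count of *Fgf9* or *Fgf23*.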
